A study of Mus musculus with 2 samples.

Results

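Serpin family genes were compared in adipose tissue between C57BL/6 mice, a standard inbred strain, kept on a normal diet (CE-2) and others given a high fat diet (HFD32), meant to induce obesity. The arrays are called the normal diet pool and the high fat pool below. Members are the probe sets whose single gene symbol begins with Serpin, which gave 56 of the 45101 probe sets on the array and 40 of 18193 genes. Each diet is represented by 1 Affymetrix array of RNA pooled from 3 mice that ate the diet from 6 to 18 weeks of age. The mice of both groups are described as healthy before feeding, and neither the fat depot nor the sex is given in the sources used here. With 1 array per diet there is no replicate check and no test, and the number of arrays limits the precision.

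Serpins are a superfamily of proteins built on 1 fold. Most of them trap a protease: an exposed loop serves as bait, the protease cuts it, and the serpin then changes shape and holds the enzyme in a dead complex. Hepatocytes release several of them into plasma, where they restrain clotting, clot lysis and leukocyte proteases. Members of clade B stay mainly inside cells, and a few family members, such as collagen chaperones and hormone carriers, inhibit nothing. Fat cells, fibroblasts, endothelium and macrophages make their own set, and several of its products are counted among adipokines.

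Levels are log2 signals, and a difference is the high fat diet signal minus the normal diet signal, so that a difference of 1 is a 2-fold ratio. Where a gene has several probe sets, the one that is brightest on average represents it. The gene counts as above the floor when its mean level over both arrays is at least 5.44, the median of all probe sets other than controls. Background is the 95th percentile of 83 probe sets of sensory receptor genes, 4.92 in the normal diet pool and 4.95 in the high fat pool. A ratio whose dimmer side lies under background is a lower bound computed against it. The only error available is the SD between probe sets of 1 gene, 0.27 on the log2 scale over 5131 genes, which covers the probes and not animals, dissection or hybridisation.

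Markers of the labelled tissue were bright in both pools. All 11 measured adipocyte markers were above the floor, with levels between 10.2 and 14.2 in the normal diet pool and between 9.49 and 14.2 in the high fat pool, and a median difference of -0.05. Hepatocyte transcripts were present as well. All 20 measured hepatocyte markers were at least 2-fold lower in the high fat pool, where 3.29% of all genes above the floor were. Their median difference was -5.04, with levels between 6.37 and 13.2 in the normal diet pool, against 3.17 to 7.91 in the high fat pool. The median level in the high fat pool was 4.39, under the floor and under background. Many of these markers thus entered through the normal diet pool alone, and the median difference is not a ratio measured on both sides. Serpins are read below beside that list.

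Promoter sequences of Serpina1b, Serpina1c and Serpina1f are shown first, because the alpha-1-antitrypsin genes lie next to each other and some share much of their upstream sequence. Alpha-1-antitrypsin is the main plasma inhibitor of neutrophil elastase, and mice carry several copies of its gene. The stretches below are the 100 bases before the RefSeq start site (mouse build GRCm38.p6, 5′ to 3′ on the minus strand, which carries all 3 genes). Serpina1b lies at chr12:103738190-103738289, Serpina1c at chr12:103904951-103905050 and Serpina1f at chr12:103695530-103695629. Capitals mark GTTAAT, the core of the site of HNF1, a transcription factor of hepatocytes.
Serpina1b: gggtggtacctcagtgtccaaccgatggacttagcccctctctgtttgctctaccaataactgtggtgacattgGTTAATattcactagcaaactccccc
Serpina1c: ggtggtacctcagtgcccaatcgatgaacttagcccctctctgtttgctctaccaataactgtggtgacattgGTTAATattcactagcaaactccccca
Serpina1f: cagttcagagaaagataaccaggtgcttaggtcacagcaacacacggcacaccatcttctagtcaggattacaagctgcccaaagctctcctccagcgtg

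Serpina1b and Serpina1c were identical at 90.9% of aligned positions over the 250 bases before the start, while Serpina1f shared 45.6% with Serpina1b and 48.0% with Serpina1c. GTTAAT began 26 bases before the start of Serpina1b and 27 bases before that of Serpina1c. It did not occur in the window of Serpina1f, which says only that these letters are not there. Searched on both strands of windows of 300 bases (250 before the start and 50 after it), GTTAAT occurred in 7.10% of 32851 promoters. Among Serpin genes with such a window it occurred in 3 of 7 liver-type members, 1 of 8 made in fat, stroma or macrophages and 1 of 19 others. The liver-type gene Serpinc1, not shown, had a wider difference (-5.45) than Serpina1f (-3.18) and has a window without a match. A match of 6 letters is a description and not a site.

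Across the family, 18 of the 40 genes were above the floor and 22 were under it. Of the 18, 6 were at least 2-fold lower in the high fat pool, where 3.29% of all 11778 genes above the floor were, and 1 was at least 2-fold higher, where 3.28% of all genes were. The median difference was 0.15 over the 18 genes, beside 0 over all genes. The family therefore did not move as 1 block. Split by where the proteins are mainly made, 5 of 6 liver-type members above the floor were at least 2-fold lower. Of 8 members made in fat, stroma or macrophages, 1 was at least 2-fold higher, where 3.28% of all genes were. At least 1.5-fold higher were 5, where 8.20% of all genes were. The 1.5-fold line, here and below, was chosen after values were seen.

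**Figure D1:**
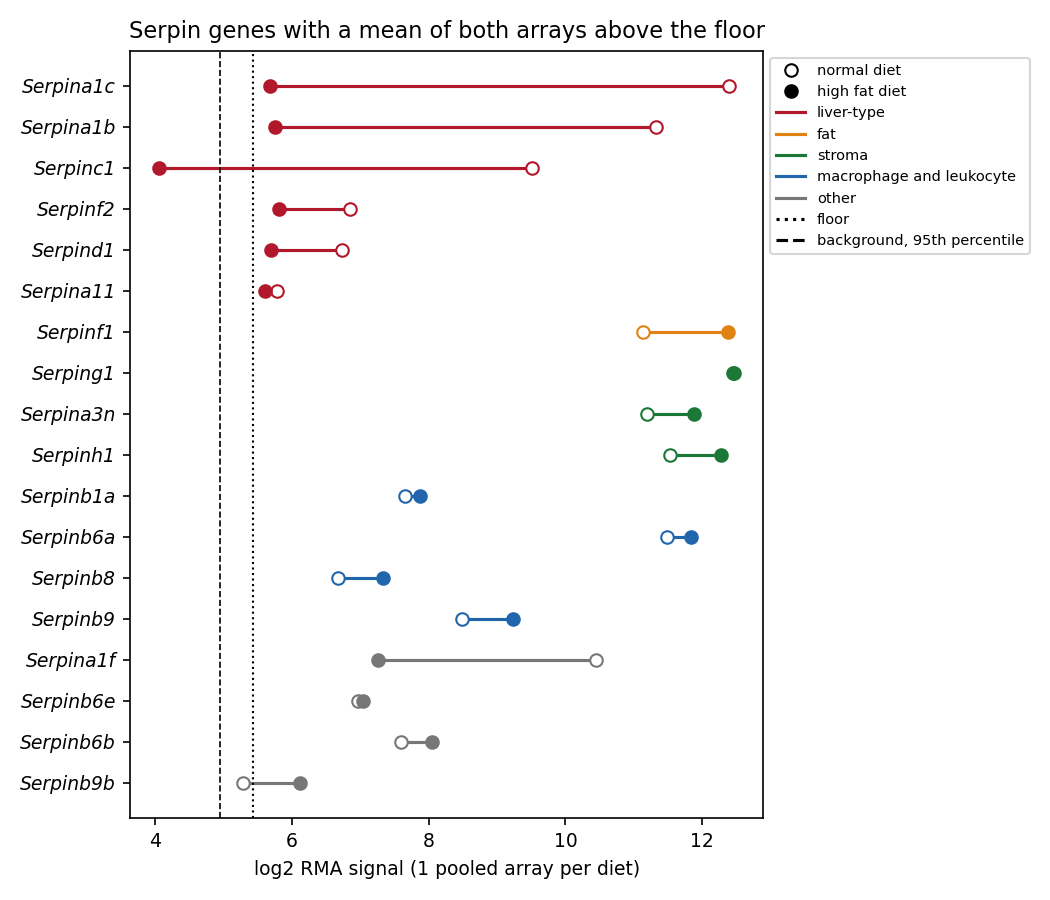
Log2 RMA signal of the 18 Serpin genes above the floor (x axis), 1 gene per row and 1 array of 3 pooled mice per diet. Open circles are the normal diet, filled circles the high fat diet, colours the source groups, and vertical lines the floor and the background. Serpina1c, Serpina1b and Serpinc1 span the widest distance, and Serpinf1 is the member with the largest gain.

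Of 6 liver-type members above the floor, 5 were at least 2-fold lower in the high fat pool, where 3.29% of all genes were. Their median was -3.24, and 1 of them, Serpinc1, passed the floor through the normal diet pool alone. Over all 10 measured genes of the list the median was -1.04. All 10 differences were negative, but that of Serpina11 was within the SD between probe sets, and of the 4 genes under the floor Serpina10 alone had a level that allows a ratio. The other listed genes, Serpina1a, Serpina1d, Serpina1e, Serpina3k and Serpina3m, have no probe set of their own among the members and were not analysed here as single genes. In pooled tissue, fewer cells of a type and less RNA per cell cannot be told apart, and how far hepatocyte RNA in the normal diet pool bears on these values was not tested.

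The alpha-1-antitrypsin genes differed most. Serpina1c had a level of 12.38 in the normal diet pool and 5.69 in the high fat pool, a difference of -6.70. Serpina1b had 11.33 and 5.75 on its brighter probe set and 10.87 and 5.63 on the other, differences of -5.58 and -5.24. For both genes the high fat diet level lay just above the floor of 5.44 and above background, so the ratios of 104-fold and 47.7-fold are measured on both sides. Both probe sets of Serpina1b carry the suffix for probes that can match several transcripts, and the copies of this gene cannot be told apart with certainty. Probe sets assigned to several copies are not members but showed the same direction. The one shared by Serpina1a and Serpina1d had 10.03 and 5.31, 26.5-fold lower, and the one shared by Serpina1b, Serpina1c and Serpina1e had 6.61 and 3.57, at least 3.16-fold lower.

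Plasma inhibitors of clotting and clot lysis followed. Serpinc1 encodes antithrombin, the heparin-dependent inhibitor of thrombin and factor Xa. It had 9.51 in the normal diet pool and 4.06 in the high fat pool, the latter under background, and was at least 23.6-fold lower. Serpind1, heparin cofactor II, another inhibitor of thrombin, had 6.73 and 5.69. Serpinf2, alpha-2-antiplasmin, the main plasma inhibitor of plasmin, had 6.86 and 5.82. Serpind1 and Serpinf2 were each 2.05-fold lower, just past the 2-fold line, with high fat diet levels close to the floor.

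The remaining liver-type members were dim on both arrays. Serpina11, whose function is less known, had 5.78 and 5.61, a difference of -0.16 that is smaller than the SD of 0.27 between probe sets. Serpina10, the protein Z-dependent inhibitor of factor Xa, lay under the floor with 5.87 and 4.73 and was at least 1.89-fold lower. Serpina6, which carries corticosteroids in blood, had 4.80 and 4.01, and Serpina7, which carries thyroxine, had 2.81 and 2.15. Those last carriers were under background on both arrays, so no ratio is given for them. The pseudogene Serpina4-ps1 had 3 probe sets with differences from -0.55 to -0.37, also under the floor, with the brightest at 4.93 and 4.38.

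The members made in fat, stroma or macrophages stood on the other side. Of 16 listed genes 10 were measured, and of the 4 listed for fat 2 were. No gene of clade E was among the members. Of the 10 measured genes 8 were above the floor, all of them on both arrays. Of these 8, 7 had a positive difference, where 49.9% of all genes above the floor did, and 5 were at least 1.5-fold higher, where 8.20% of all genes were. None was at least 1.5-fold lower, where 8.52% of all genes were, and 8 genes are too few to set these shares apart. Their median was 0.67, and it stayed at 0.67 over all 10 measured genes. At 2-fold the count was 1 of 8, which is too few to set apart from the 3.28% of all genes.

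**Figure D2:**
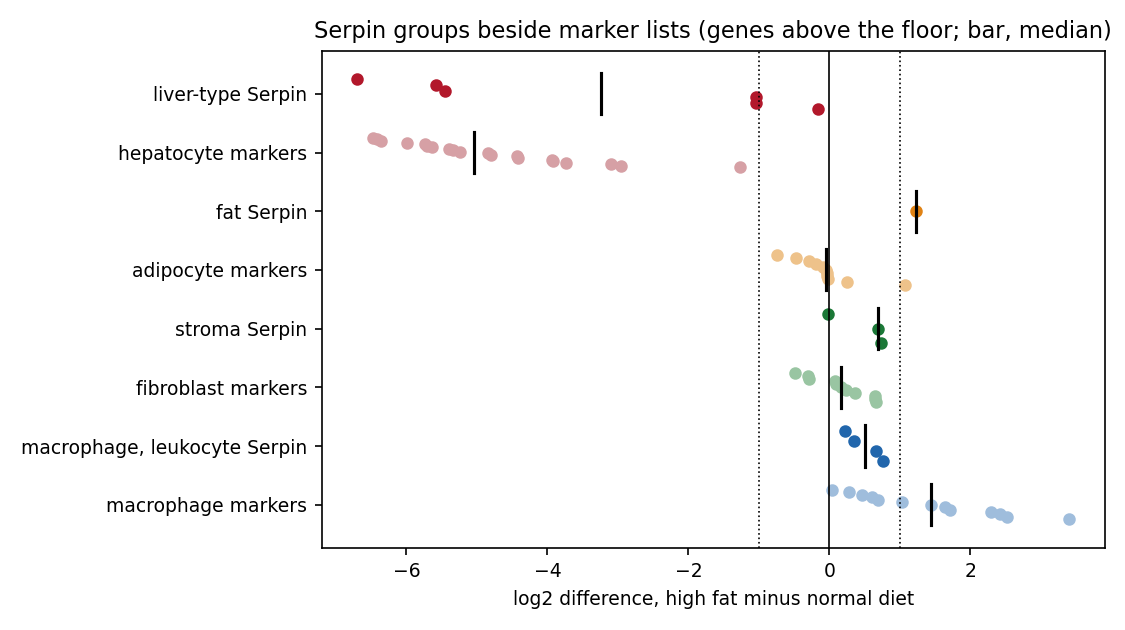
Log2 difference, high fat minus normal diet (x axis), of each Serpin gene above the floor by source group, beside markers of the matching cell type. Points are genes, black bars medians and dotted lines 2-fold. The liver-type Serpin genes run from -6.70 to -0.16 beside hepatocyte markers with a median of -5.04, and the macrophage and leukocyte Serpin genes run from 0.23 to 0.76 beside macrophage markers with a median of 1.44.

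Serpinf1 was the member with the largest gain. It encodes PEDF, a secreted protein that inhibits vessel growth, binds collagen and blocks no protease, and fat cells and fibroblasts make it. It had 11.14 in the normal diet pool and 12.37 in the high fat pool on its brighter probe set, and 10.14 and 11.53 on the other. Its differences of 1.24 and 1.39 were both past 2-fold and well over the SD of 0.27 between probe sets. On the same arrays all 8 endothelial markers were lower, where 5805 of 11778 genes above the floor were. Their median was -0.61, with a range from -0.76 to -0.39, and any link to Serpinf1 was not tested. Serpina12, vaspin, an adipokine of visceral fat that inhibits kallikrein 7, lay under the floor. It had 5.33 and 4.60 on its brighter probe set, where the high fat diet level was under background, and 3.29 and 3.21 on the other. Serpina3c was not analysed here.

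The stromal members were bright. Serpinh1 encodes HSP47, the chaperone that folds collagen in the endoplasmic reticulum. It had 11.54 and 12.28 on one probe set and 11.59 and 12.22 on the other, with differences of 0.74 and 0.63. Fibroblast markers, which include the collagens that HSP47 serves, had a median of 0.16, and 8 of the 11 measured were higher. Serpina3n, an acute-phase inhibitor of leukocyte proteases made by fibroblasts and other cells, liver among them, had 11.19 and 11.88, a 1.61-fold gain. It is the only clade A gene above the floor that was higher.

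The window before Serpina3n is shown because it is that exception within its clade. It covers 250 bases before the start (GRCm38.p6, chr12:104406458-104406707, plus strand), and capitals mark the single match to GGGNNTTTCC, a form of the site of NF-kappaB, which turns on inflammatory genes.
Serpina3n: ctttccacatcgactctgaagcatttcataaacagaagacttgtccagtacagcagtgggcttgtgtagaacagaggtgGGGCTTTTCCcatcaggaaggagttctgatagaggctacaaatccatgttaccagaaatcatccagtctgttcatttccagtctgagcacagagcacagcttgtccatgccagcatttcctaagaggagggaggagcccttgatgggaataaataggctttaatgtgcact

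The match began 171 bases before the start. Searched on both strands, GGGNNTTTCC occurred in 1.63% of 32851 promoter windows, and among the 34 Serpin genes with a window it occurred in Serpina3n and in Serpina3i. Serpina3i lay under background on both arrays, with a difference of -0.11.

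Serping1 did not follow the other stromal members. It encodes the C1 inhibitor, which restrains the first complement proteases and plasma kallikrein, and fibroblasts, macrophages and liver make it. Its levels were 12.47 and 12.45, a difference of -0.02. Among its target proteases, C1s1 had 11.20 and 10.62 and C1ra had 9.61 and 8.94, differences of -0.59 and -0.67. Both proteases were thus lower while the inhibitor was level. The highest signals of the arrays were 14.28 and 14.21, so Serping1 was not at the top of the scale.

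The measured members of leukocytes and macrophages all belong to clade B. Their differences above the floor ran from 0.23 to 0.76, and 2 of 4 were at least 1.5-fold higher, where 8.20% of all genes were. Serpinb9, which protects killer cells and antigen-presenting cells from granzyme B, had 8.48 and 9.24 on one probe set and 6.71 and 7.56 on the other. Its differences of 0.76 and 0.86 were close to each other. Serpinb8, an inhibitor of the convertase furin, had 6.67 and 7.33 and, on its other probe set, 6.32 and 6.75. Serpinb6a, an abundant intracellular inhibitor, had 11.48 and 11.83, a difference of 0.35. Serpinb1a, which blocks elastase, cathepsin G and proteinase 3 of neutrophils, had 7.65 and 7.88, and its difference of 0.23 was within the SD of 0.27.

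Macrophage markers had a larger median difference than these Serpin genes, 1.44 against 0.51, but the ranges overlapped. All 13 markers were higher in the high fat pool, where 49.9% of all genes were, with a range from 0.04 to 3.40. Of the 13, 8 were at least 2-fold higher, where 3.28% of all genes were. The clade B members of the group ran from 0.23 to 0.76, and the part of macrophage number in them was not tested. T and NK cell markers, other users of Serpinb9, had a median of -0.12 over 4 genes above the floor. Serpinb2, the plasminogen activator inhibitor PAI-2 of activated macrophages, went from 3.37 to 4.98. The second level barely exceeds background, so the bound is 1.04-fold although the difference reads 1.60.

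**Figure D3:**
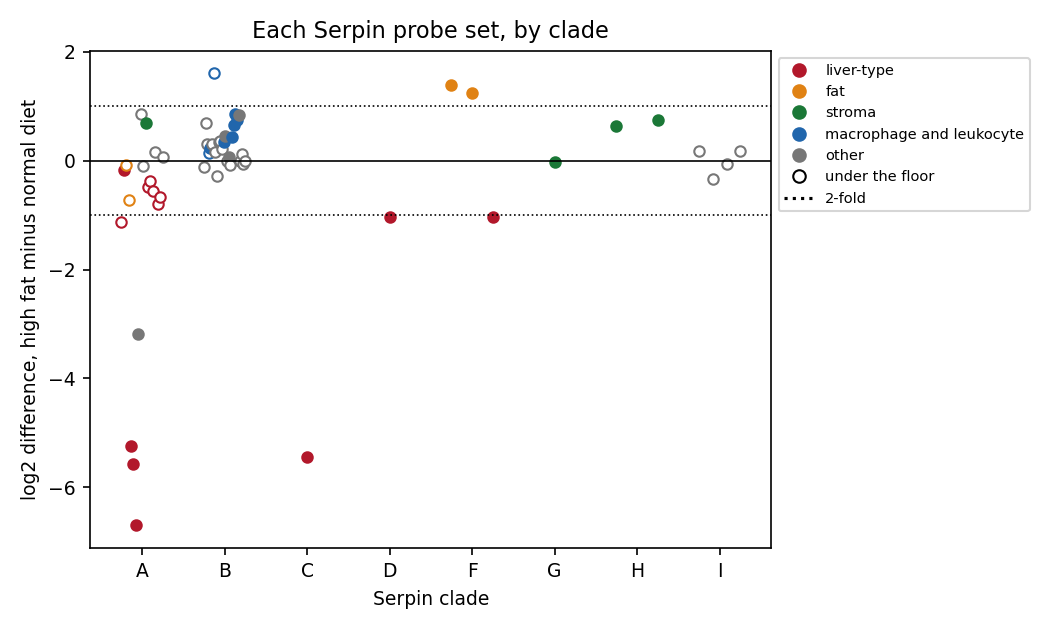
Log2 difference, high fat minus normal diet (y axis), of the 56 Serpin probe sets by clade (x axis), coloured by source group. Filled points are above the floor, open points under it, and dotted lines are 2-fold. Clade A spreads from -6.70 upward with Serpina3n above 0, while every filled point of clade B is above 0.

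Clade A, the antitrypsin-like secreted serpins, had 14 genes, of which 5 were above the floor, with 4 lower, 3 of them at least 2-fold (3.29% of all genes), and a median of -3.18. Over all 14 genes the median was -0.61, and the 9 genes under the floor went both ways, with 3 higher and 6 lower. Clade B had 18 genes, of which 7 were above the floor, and all 7 had a positive difference, where 49.9% of all genes did. Their median was 0.45, the range ran from 0.07 to 0.84, and 3 were at least 1.5-fold higher, where 8.20% of all genes were. Serpinb9b entered through the high fat pool alone. Under the floor, 11 clade B genes went both ways, with 6 higher and 3 lower and the others exactly equal.

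Several clade B genes above the floor are copies that arose by duplication in rodents. Serpinb6b, a relative of Serpinb6a, had 7.60 and 8.04, a difference of 0.45. Serpinb6e, another relative, had 6.97 and 7.04, a difference of 0.07 that is within the SD. Serpinb9b, a relative of Serpinb9, had 5.29 and 6.13, 1.79-fold higher. All 3 lie with Serpinb1a, Serpinb6a and Serpinb9 on chromosome 13, where 6 of 11 measured genes were above the floor. All 6 had a positive difference, where 49.9% of all genes did. Serpinb9b is among the 6 through the high fat pool alone, and the differences of Serpinb6e and Serpinb1a were within the SD. Copies of this kind are close in sequence, and probes may not tell them apart.

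Clade B also has a group on chromosome 1. That group holds genes of skin and other squamous epithelium, such as Serpinb3a and Serpinb5, which encodes maspin. Of its 7 measured genes Serpinb8 alone was above the floor, with a positive difference of 0.66, and 5 were under background on both arrays, as were 5 of the 11 on chromosome 13. Keratinocyte markers were also dim, with 2 of 7 above the floor. Serpinb5 was covered by 4 probe sets with differences from -0.29 to 0.35, all under background.

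**Figure D4:**
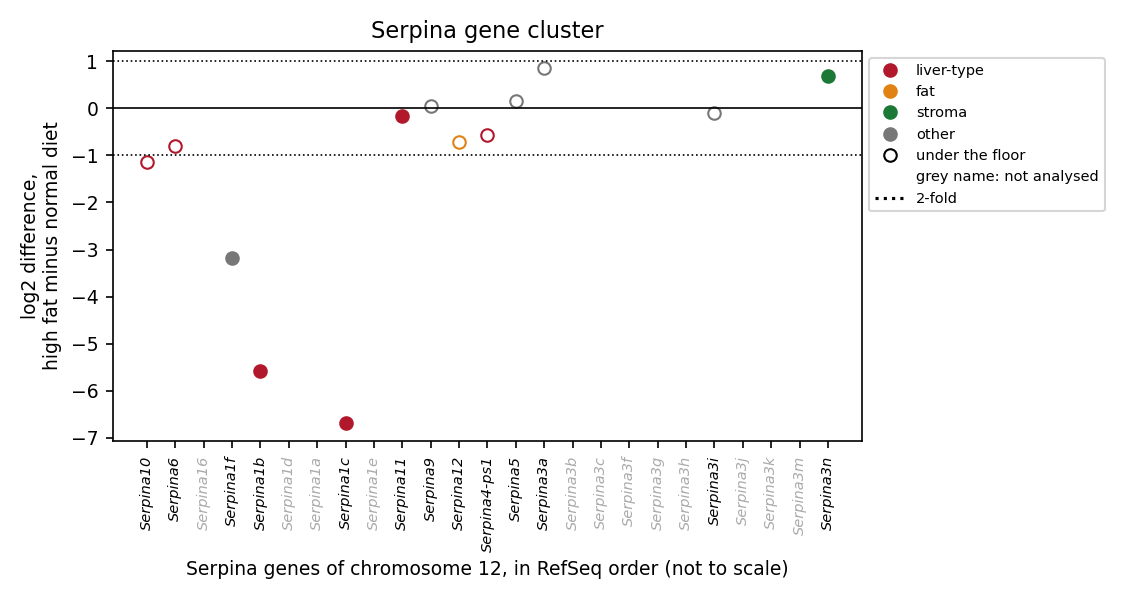
Log2 difference, high fat minus normal diet (y axis), of the Serpina genes of chromosome 12 in RefSeq order (x axis, not to scale). Filled points are above the floor, open points under it, grey names were not analysed and dotted lines are 2-fold. The 3 lowest values, Serpina1f, Serpina1b and Serpina1c, are close together in the order, and Serpina3n at the far end is above 0.

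Differences within clade A also varied along the chromosome. The Serpina cluster of chromosome 12 holds 25 genes in the RefSeq order used, of which 13 were measured and 5 were above the floor. From Serpina1f through Serpina1b to Serpina1c the differences were -3.18, -5.58 and -6.70. The next measured gene, Serpina11, had -0.16, and Serpina3n, last in the order, had 0.69.

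Serpina1f was the widest difference outside the lists of tissue sources. By name it belongs to the alpha-1-antitrypsin copies, but it was not counted as liver-type. It had 10.44 in the normal diet pool and 7.26 in the high fat pool, 9.08-fold lower, with both levels well above background. Its 1 probe set carries no suffix for several transcripts. Hepatocyte markers had a median of -5.04 on the same arrays and skeletal muscle markers had -1.97. All 7 measured pancreas markers were at least 2-fold lower (3.29% of all genes), while 5 epididymis markers above the floor were higher (49.9% of all genes). Among the pancreas markers, Cpa1, Cpb1, Cela2a, Cel and Clps entered only through the normal diet pool, and all of these but Clps were under background in the high fat pool. Of the 5 epididymis markers, Gpx5 alone was above background in the normal diet pool, and Lcn8, Lcn9, Adam7 and Cst12 entered only through the high fat pool. The part of any of these tissues in Serpina1f was not tested.

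The clade F genes are neighbours with opposite differences. Serpinf1 and Serpinf2 lie side by side on chromosome 11, with 0 protein-coding genes between them in RefSeq. Serpinf1, the stromal and adipocyte gene, differed by 1.24, and Serpinf2, the liver-type gene, by -1.04.

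Clade I was not detected. Serpini1, neuroserpin, an inhibitor of tissue plasminogen activator in neurons, had 4.49 and 4.44 on its brightest probe set. Serpini2 had 3.01 and 3.19. Both were under background on both arrays. Over the whole family 18 of 40 genes were under background on both arrays, and 16 of them belong to the 20 genes with no assigned source in fat, stroma, leukocytes or liver. They include Serpina3a (3.93 and 4.78), Serpina5 (2.96 and 3.13), Serpina9 (3.82 and 3.88) and Serpinb9d (3.41 and 3.35).

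The proteases and cofactors that serpins act on were read as a list of their own. Of 25 listed genes 24 were measured and 13 were above the floor. Of these 13, 10 were lower, 4 of them by 2-fold or more, and 3 were higher, 1 of them by 2-fold or more, and the median was -0.59. Among all 11778 genes 3.29% were at least 2-fold lower, 3.28% at least 2-fold higher and 49.9% higher by any amount. The 3 lowest were Plg, F2 and Vtn. Plg, plasminogen, the precursor of the protease that Serpinf2 blocks, had 8.76 and 5.24, 11.5-fold lower. F2, prothrombin, the precursor of the protease that Serpinc1 and Serpind1 block, had 7.91 and 5.43, 5.55-fold lower. The high fat levels of Plg and F2 lay under the floor, as did those of Masp1 (6.05 and 5.42) and Masp2 (5.92 and 5.38). These genes, all lower, entered through the normal diet pool alone, and the count of lower genes and the median rest partly on them. F10, whose active form Serpinc1 also blocks, had 6.27 and 6.47, a difference of 0.20. Vtn, vitronectin, an adhesive plasma protein, was 4.83-fold lower. The gene farthest in the other direction was Plaur, the urokinase receptor of macrophages and other cells, with 6.19 and 7.41, 2.33-fold higher.

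Inhibitor and target did not always differ to the same extent. Prtn3, a neutrophil protease blocked by Serpinb1a, had 8.04 and 6.33, 3.27-fold lower, while the difference of 0.23 of Serpinb1a was within the SD. Gzmb, the target of Serpinb9, was under background on both arrays with 4.83 and 4.68. Elane, the target of alpha-1-antitrypsin, had 5.31 and 5.15 and lay under the floor. Prtn3, Gzmb and Elane were named as the targets of members described here and not by the extent of their differences.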

How the data were processed

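The deposited values are log2 signals, 1 per probe set and array, made by the authors with RMA, per the submitters' processing notes. The log2 scale was read from the values, which ran from 2.04 to 14.28. Its version and the genome build were not given in the sources used here. RMA makes the array distributions nearly equal, which removes any change in total RNA, and compresses differences at both ends of the scale. Genes were named from GEO's platform annotation. All 40 Serpin IDs were found in RefSeq (GRCm38.p6), with 0 symbols changed, and 3 probe sets shared by several Serpin genes were left out. Named were all Serpin genes above the floor, those under it past 2-fold with a level above background, and in the list of proteases and cofactors the 3 farthest in the median's direction and the 1 farthest the other way. Further Serpin genes under the floor and further proteases and cofactors were named outside this rule. Marker lists of other cell types, for which the rule names genes too, are given by their summaries. The exceptions are pancreas and epididymis markers named by their levels against floor or background. Members, source lists, the rule and motifs were chosen with earlier results of these data known. The 1.5-fold line and the 2 motifs shown, of 10 searched, were chosen after values were seen. Python 3.11.15, pandas 2.3.3 and Biopython 1.88 were used. Promoter sequences are from RefSeq.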

Additional observations from a re-analysis of the deposited data

How the results depend on the processing

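Alternatives were another floor, another choice of probe sets, another scaling and signals raised to background, with changed membership added after seeing the data. Of 150 group medians and counts 135 stayed within the SD of 0.27 or, for counts, within 1.5 times. The 135 include the values after the median difference of all genes was set to 0. That setting could change nothing, because this median was already 0. No paired analysis was possible because each diet has 1 array. The liver-type median of -3.24 was -1.04 with no floor, -6.14 with the floor at the 75th percentile, where 2 genes remained and 2 were at least 2-fold lower, -1.14 with the floor at background, -1.04 using only probe sets with no suffix for several transcripts and -2.80 with signals raised to background. The clade A median of -3.18 was -0.61, -4.38, -1.14 and -1.67 under the first 4 of these. With no floor, Serpinb2 made the 2-fold higher count 2 for the family, 2 for the fat, stroma and macrophage group and 1 for clade B, although its bound is 1.04-fold. With the floor at the 75th percentile, 3 Serpin genes were at least 2-fold lower and the median of the genes with no assigned source changed sign, from 0.26 over 4 genes to -1.37 over 2 genes, which include Serpina1f. Without Serpina3n and Serping1, which hepatocytes also make, the fat, stroma and macrophage median was 0.70. Near background, the liver-type ratios are limited by signal.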

Other observations

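Among 12 Serpin genes with several probe sets, 9 had differences of 1 sign, including all 5 with several probe sets above the floor. The others were Serpinb5, Serpinb9c and Serpini1, all under the floor. Serpinb12, a gene of epithelia, had differences of 0.30 and 0.69 on its 2 probe sets, both under background.

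Serpind1 and Serpinf2 had the same difference of -1.04 to 5 decimals at different levels, and Serpinb6c and Serpinb9g had exactly 0. Such ties run through the whole file. Its 45101 differences take 22597 distinct values at 5 decimals, and 1509 of them are 0.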
